A study of Mus musculus with 24 samples.

Results

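In mouse MLL-AF9 leukaemia cells, knockout of MLLT6 was compared with knockout of DOT1L by RNA sequencing. The comparison takes 9 of the 24 libraries of the series: 3 with MLLT6 guide 1, 3 with MLLT6 guide 2 and 3 with the DOT1L guide, chosen by the guide named in each label. All groups, controls included, are cultures of murine acute myeloid leukaemia cells driven by the MLL-AF9 fusion oncogene, with Cas9 in the same cells. Lentivirus brought in the guide RNAs at an MOI of 0.3, puromycin (2 ug/ml) was added 48 h later for 72 h to keep transduced cells, and day 9 was the day of RNA isolation. The populations were selected in bulk as far as the labels say, so cells without a null allele may remain in them. The 3 non-targeting control libraries were treated alike and took no part in the contrast between the knockouts, though they entered the same fit. They appear below as a background level and in a few comparisons of each knockout with the control. The sources used here name a single guide for the DOT1L knockout and give no cut sites and no protein levels, so an effect of that guide alone cannot be told apart from an effect of the gene. Whether the 3 libraries of a guide are separate cultures is not stated, and the p-values hold for the spread between libraries, which may be technical.

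DOT1L is the histone methyltransferase that marks the core of histone H3 on transcribed genes, and MLL fusion proteins are known to draw it to genes such as those of the Hoxa cluster and Meis1. MLLT6 and MLLT10 are related proteins with PHD fingers that are known partners of DOT1L, while MLLT1 and MLLT3 are related YEATS-domain proteins that read acylated histones. In MLL-rearranged leukaemia, loss of DOT1L activity is known to lower the fusion's target genes and to let blasts mature towards myeloid cells. The comparison asks how far the loss of a partner and the loss of the enzyme differ in the mRNAs of the same cells on the same day.

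The 9 libraries held between 2719757 and 6773032 counts. Levels are given as TMM-normalised CPM, that is counts per 1e6 counts of a library after edgeR's correction for composition. Where a level is given as mean ± SD, n = 6 for the MLLT6 knockout (both guides) and n = 3 for the DOT1L knockout and for the control. MLLT6 guide 1 replicate 3 stood apart: it lay at 50.7 on the second principal component, the other 8 libraries lay between -26.5 and 4.41, and this component held 11% of the variance. The first component, with 60.5%, put the DOT1L libraries between -67 and -63.3 and the MLLT6 libraries between 27.1 and 43.6. Mitochondrially encoded genes took 1.51% ± 0.231 (SD, n = 6) of counts in the MLLT6 knockout and 1.60% ± 0.145 (n = 3) in the DOT1L knockout (exact permutation test, two-sided, p = 0.595).

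The mRNAs of the targeted genes were examined first. For Dot1l (ENSMUSG00000061589, mm10 chromosome 10, 80755206 to 80795461), the DOT1L libraries read 49, 41.6 and 43.3 CPM, those of MLLT6 guide 1 read 63.3, 54.2 and 54.7 CPM and those of guide 2 read 65.1, 63.1 and 65.6 CPM, beside 69.7, 75.1 and 73.9 CPM in the non-targeting libraries. It was lower in each DOT1L library than in any MLLT6 library. The log2 fold change, MLLT6 knockout minus DOT1L knockout, was 0.45 ± 0.11 (SE; quasi-likelihood test of edgeR, Benjamini-Hochberg adjusted p = 0.00330, or 0.0803 when genes of low count are kept in). For Mllt6 (ENSMUSG00000038437, mm10 chromosome 11, 97663414 to 97685463), the libraries of guide 1 read 20.8, 23.3 and 14.9 CPM, those of guide 2 18, 19.1 and 17.1 CPM and the non-targeting ones 30.1, 42.2 and 32.7 CPM. The DOT1L libraries read 19.3, 19.9 and 14.1 CPM, so that Mllt6 mRNA overlapped between the knockout that targeted it and the one that did not. Between them the log2 difference was 0.09 ± 0.20 (edgeR adjusted p = 0.768). Against the control it was -0.90 ± 0.19 in the MLLT6 knockout (edgeR adjusted p = 0.496) and -1.0 ± 0.23 in the DOT1L knockout (edgeR adjusted p = 0.00214). The 2 falls were thus alike in size, and every MLLT6 library lay below every control library. An adjusted p depends on all genes of its comparison, and MLLT6 against the control had 0 called genes. The 2 adjusted p therefore do not show that Mllt6 fell in the DOT1L knockout alone. Cas9 edits can break a protein and leave its mRNA level as it was, so the levels are a weak check of the labels, and every direction refers to libraries as labelled. Mllt10, Mllt1 and Mllt3 did not pass, with log2 fold changes of -0.24 ± 0.21, -0.15 ± 0.21 and 0.03 ± 0.27 (edgeR adjusted p = 0.415, 0.640 and 0.947).

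The 2 knockouts differed widely. Among tested genes, 14 of 14 of specific granules, 7 of 8 of the phagocyte oxidase and 9 of 11 chemoattractant receptors were lower in the MLLT6 knockout, while Meis1, 6 of 6 Hoxa genes and 20 of 33 known targets of MLL fusions, a list that holds both, were higher. Of 10578 genes tested, 1484 were higher (14%) and 1616 were lower (15.3%) in the MLLT6 knockout at an edgeR adjusted p under 0.05, together 29.3%. At least 2-fold differences made up 717 of the higher and 761 of the lower genes. Guide 1 alone gave 1468 higher and 1471 lower genes against the DOT1L knockout (27.8% of those tested), and guide 2 alone gave 1096 and 1166 (21.4%). Without MLLT6 guide 1 replicate 3, the counts for both guides together were 1354 and 1532. The split depended on scaling: 47.9% of called genes were higher with TMM and 70.4% with library totals alone, where the median over all genes moved from 0.0054 to 0.21 on the log2 scale. The DOT1L libraries had TMM factors of 0.863 to 0.880 and the MLLT6 libraries of 0.955 to 1.05. The called genes named below had the same direction under both scalings.

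**Figure D1:**
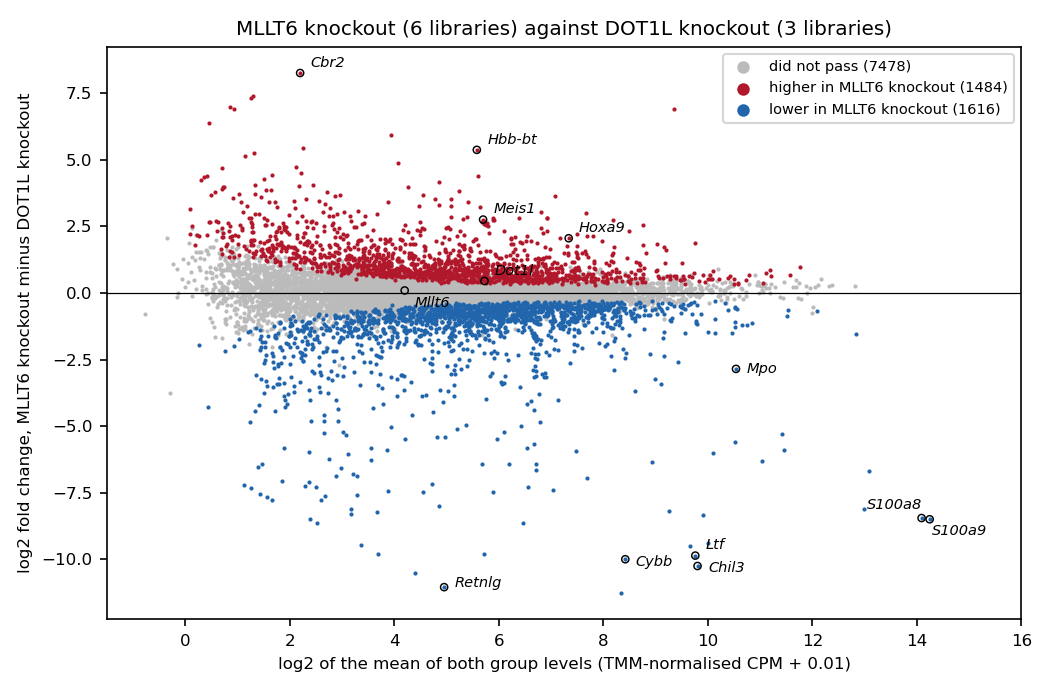
Each point is 1 of 10578 tested genes, with the log2 of its mean level on the horizontal axis and the log2 fold change (MLLT6 knockout minus DOT1L knockout) on the vertical axis. Red points (1484) were higher and blue points (1616) lower in the MLLT6 knockout at an edgeR adjusted p under 0.05, and the blue points reach farther from 0 than the red ones, with S100a8 and S100a9 at the highest mean levels. The fitted position of genes with no count in a group, such as Cbr2 and Retnlg, depends on the prior count and is no bound.

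The guides targeting MLLT6 did not differ from each other in any called gene: edgeR called 0 of 10578 genes (0%) between guide 1 and guide 2 (983 at an unadjusted p under 0.05), and DESeq2 called 7. Set against the control, the MLLT6 knockout likewise had 0 called genes with edgeR (727 at an unadjusted p under 0.05) and 0 with DESeq2, while the DOT1L knockout had 2309 (21.8%). These comparisons share libraries with each other, so they are given side by side and no overlap is drawn from them. With no filter on low counts, edgeR called 67 genes between the guides and 80 between the MLLT6 knockout and the control.

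S100a8 and S100a9, which pair to form the neutrophil protein calprotectin, were far lower in the MLLT6 knockout. Together they took 0.0211% ± 0.00955 (SD, n = 6) of all counts in the MLLT6 knockout and 6.39% ± 0.289 (n = 3) in the DOT1L knockout (exact permutation test, two-sided, p = 0.0119, the smallest that 6 against 3 libraries allow). S100a8 (ENSMUSG00000056054, mm10 chromosome 3, 90668978 to 90670035) ranged from 70.5 to 219.7 CPM with a median of 91.5 in the 6 MLLT6 libraries and stood at 37308, 41709 and 37222 CPM in the DOT1L libraries. S100a9 (chromosome 3, 90692632 to 90695721) ranged from 74.5 to 181 CPM with a median of 85.3, against 31858, 35324 and 37219 CPM. Neither gene's groups came near to overlapping, and the non-targeting libraries, with 97.7, 53.2 and 61.4 CPM of S100a8, lay within or below the MLLT6 range. The log2 fold changes were -8.49 ± 0.30 and -8.45 ± 0.25 (edgeR adjusted p = 4.7e-16 and 1.6e-17). In bulk RNA, fewer cells of a type and less RNA per cell cannot be told apart. Of 8 tested members of the S100 family, 1 was higher and 4 lower in the MLLT6 knockout, with a list median of -0.70 on the log2 scale beside 0.0054 over all genes. S100a10, a partner of annexin in membranes, was higher (104 ± 15.5 against 55.9 ± 14.4 CPM, log2 0.90 ± 0.16, edgeR adjusted p = 1.6e-04), and S100a1 was lower (213 ± 25.2 against 422 ± 58.1 CPM, log2 -0.99 ± 0.21, edgeR adjusted p = 9.0e-04).

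Specific granules are the stores that a maturing neutrophil fills with antimicrobial proteins after the promyelocyte stage. All 14 tested genes of the specific granule list were lower in the MLLT6 knockout, with a median log2 fold change of -6.48. Camp (ENSMUSG00000038357, mm10 chromosome 9, 109847379 to 109849617), the precursor of the antimicrobial peptide cathelicidin, ranged from 34.3 to 99.3 CPM with a median of 62.8 in the MLLT6 libraries and stood at 13619, 18303 and 16665 CPM in the DOT1L libraries. Ngp (chromosome 9, 110419747 to 110423012), neutrophilic granule protein, ranged from 50.6 to 149 CPM (median 89) against 4902, 5443 and 6142 CPM. Every DOT1L library exceeded every MLLT6 library by more than an order of magnitude in both genes. The log2 fold changes were -8.11 ± 0.25 and -5.88 ± 0.23 (edgeR adjusted p = 1.8e-17 and 1.6e-15). Lyz2, the lysozyme of myeloid cells, followed with 60.1 ± 6.15 against 2887 ± 591 CPM (log2 -5.59 ± 0.16, edgeR adjusted p = 1.2e-17). Fcnb (chromosome 2, 28076378 to 28084885), a ficolin that binds microbial sugars, ranged from 0.347 to 4.78 CPM (median 1.55) against 1414, 1722 and 1727 CPM, with log2 -9.51 ± 0.35 (edgeR adjusted p = 8.3e-16). The lactoferrin gene Ltf, whose product withholds iron from microbes, ranged from 0 to 5.15 CPM (median 1.40) against 1668, 1695 and 1831 CPM, and Chil3, a chitinase-like secreted protein, from 0 to 6.25 CPM (median 1.23) against 2157, 1702 and 1492 CPM. In the control these 3 genes stood no higher than 1.17 CPM in any library. The 15th member of the list, Olfm4, was not tested because its counts were too low.

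The promoters of the specific granule genes are shown because these genes moved together and because C/EBP factors are known regulators of them. Each window runs from 250 bases before to 50 after a RefSeq start site (GRCm38.p6), 5′ to 3′ on the gene's strand, and capitals mark each match to TTGCNNAA on either strand, a core that C/EBP proteins are known to bind. A window was found for 12 of the 14 tested members and for 8070 of the 10578 tested genes, and the windows of 6 of the 12 (50%) and of 657 of the 8070 (8.14%) held the letters. These counts had no distance limit: the 6 include Clec12a and Lcn2, whose RefSeq start sites lay 7553 and 513 bases from the annotated ones. The 4 windows below belong to the members with a match, a start site within 500 bases of the annotated one and the smallest adjusted p. Anxa1, which encodes annexin A1, a brake on neutrophil recruitment, was taken by this rule alone (11.8 ± 5.05 against 958 ± 175 CPM, log2 -6.33 ± 0.30, edgeR adjusted p = 8.3e-14). They are followed by that of Meis1, which was higher in the MLLT6 knockout and holds no match in this window.
Fcnb, chr2:28084829-28085128, minus strand: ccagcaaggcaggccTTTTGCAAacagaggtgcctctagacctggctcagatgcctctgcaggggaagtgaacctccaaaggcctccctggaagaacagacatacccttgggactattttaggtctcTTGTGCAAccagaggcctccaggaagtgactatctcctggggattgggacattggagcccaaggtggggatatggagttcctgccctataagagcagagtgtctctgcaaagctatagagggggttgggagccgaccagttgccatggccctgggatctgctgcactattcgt
Ngp, chr9:110419558-110419857, plus strand: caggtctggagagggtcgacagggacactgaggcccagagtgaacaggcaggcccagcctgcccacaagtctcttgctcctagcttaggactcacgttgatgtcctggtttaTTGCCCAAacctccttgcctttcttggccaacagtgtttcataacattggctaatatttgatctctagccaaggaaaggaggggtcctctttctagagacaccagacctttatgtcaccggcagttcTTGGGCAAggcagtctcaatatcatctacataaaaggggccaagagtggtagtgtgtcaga
Ltf, chr9:111019042-111019341, plus strand: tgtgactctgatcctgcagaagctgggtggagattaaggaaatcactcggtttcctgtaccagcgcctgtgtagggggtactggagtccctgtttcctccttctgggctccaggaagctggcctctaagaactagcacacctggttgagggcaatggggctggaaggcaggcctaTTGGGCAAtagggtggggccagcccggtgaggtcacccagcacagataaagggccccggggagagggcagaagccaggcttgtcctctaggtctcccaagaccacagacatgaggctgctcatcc
Anxa1, chr19:20390622-20390921, minus strand: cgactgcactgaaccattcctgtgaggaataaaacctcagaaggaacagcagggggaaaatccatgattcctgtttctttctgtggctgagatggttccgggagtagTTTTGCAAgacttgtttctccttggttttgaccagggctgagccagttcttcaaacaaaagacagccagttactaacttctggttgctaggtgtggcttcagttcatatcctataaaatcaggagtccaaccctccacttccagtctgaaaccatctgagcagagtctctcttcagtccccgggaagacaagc
Meis1, chr11:19018920-19019219, minus strand: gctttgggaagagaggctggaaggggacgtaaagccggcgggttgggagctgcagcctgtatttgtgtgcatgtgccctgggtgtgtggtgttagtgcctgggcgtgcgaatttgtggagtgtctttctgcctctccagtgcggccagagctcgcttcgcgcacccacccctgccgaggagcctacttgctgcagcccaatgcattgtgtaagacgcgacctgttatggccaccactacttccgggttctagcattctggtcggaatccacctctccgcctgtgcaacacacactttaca
The matches begin 235 and 123 bases upstream of the start site in Fcnb, 138 and 11 in Ngp, 75 in Ltf and 143 in Anxa1. The same letters were in the windows of 91 of 1155 genes called higher in the MLLT6 knockout (7.88%) and of 119 of 1269 called lower (9.38%). Other lists held them less often than the specific granule list. They were in 2 of 14 windows of gelatinase and late neutrophil genes (14.3%) and 2 of 9 of primary granule genes (22.2%). The S100 family had 1 of 7 (14.3%), chemoattractant receptors 1 of 11 (9.09%), MLL fusion targets 2 of 27 (7.41%) and Hoxa genes 0 of 6. A second motif, GAGGAAGT on either strand, a core bound by PU.1, was in 1 of the 12 specific granule windows (8.33%), in 4 of 9 primary granule windows (44.4%) and in 3.51% of the windows of all tested genes. A match describes letters in these windows and is not evidence of binding.

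Genes of gelatinase granules and late neutrophils were lower in the MLLT6 knockout too, 15 of 16 tested, with a median log2 fold change of -4.02. The exception, Slfn4, a Schlafen family gene, was at log2 -0.41 (edgeR adjusted p = 0.292). Mmp9, which encodes gelatinase B, ranged from 2.02 to 12.1 CPM (median 4.43) in the MLLT6 libraries and stood at 327, 378 and 346 CPM in the DOT1L libraries. Ceacam10 ranged from 0 to 1.04 CPM (median 0.484) against 142, 202 and 184 CPM. Neither gene's groups overlapped, and the log2 fold changes were -5.94 ± 0.36 and -8.65 ± 0.38 (edgeR adjusted p = 6.0e-12 and 1.6e-14). Asprv1, a retroviral-like protease, and Trem3, a receptor of myeloid cells, were lower by log2 fold changes of -7.47 and -4.17 (edgeR adjusted p = 4.3e-14 and 1.8e-12). Retnlg, a resistin-like secreted protein, had 0 counts over the 6 MLLT6 libraries and 693 over the 3 DOT1L libraries, at least 446-fold lower when the group is given a floor of 3 counts. The control libraries also held no Retnlg count.

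**Figure D2:**
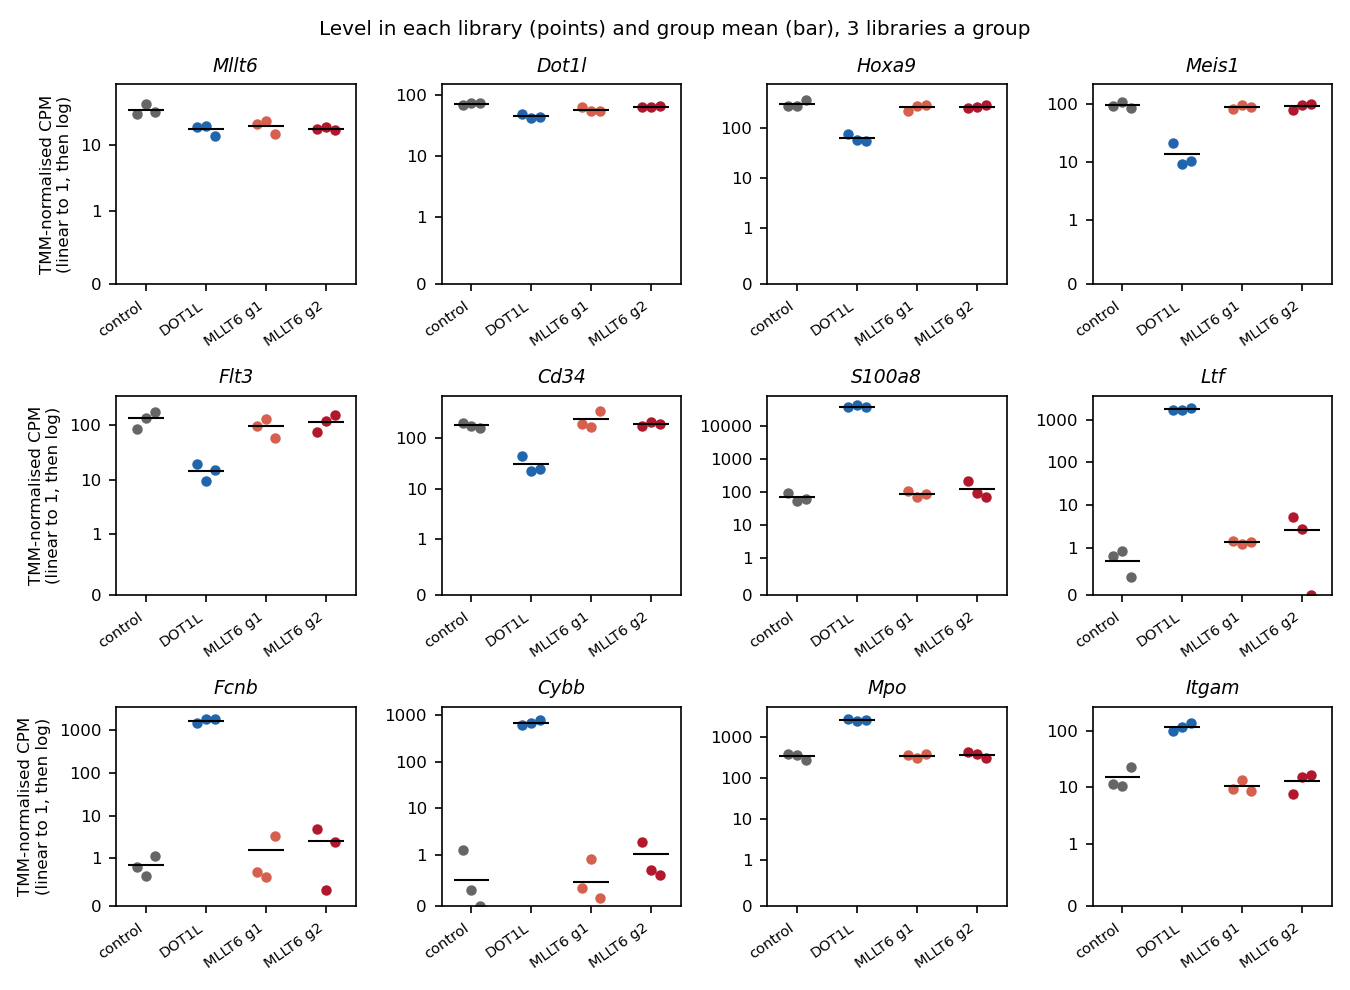
TMM-normalised CPM (linear to 1, then logarithmic) of 12 genes in the control, the DOT1L knockout and both MLLT6 guides, with points for the 3 libraries of a group and a bar for the group mean. Hoxa9, Meis1, Flt3 and Cd34 are low and S100a8, Ltf, Fcnb, Cybb, Mpo and Itgam high in the DOT1L libraries alone, while Mllt6 is at about the same level in the DOT1L and the MLLT6 libraries.

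Primary granules, which form first and hold myeloperoxidase and the serine proteases, did not move as a block. Of 11 tested members, 5 were lower and 3 higher in the MLLT6 knockout, with a median of -0.02. Mpo (ENSMUSG00000009350, mm10 chromosome 11, 87793581 to 87804413), myeloperoxidase, ranged from 312 to 433 CPM with a median of 368 in the MLLT6 libraries, against 2768, 2519.6 and 2549 CPM in the DOT1L libraries. Prtn3, proteinase 3, ranged from 392 to 714 CPM (median 635) against 1691, 1608 and 1669 CPM. In both genes every MLLT6 library lay below every DOT1L library (log2 -2.85 ± 0.15 and -1.49 ± 0.14, edgeR adjusted p = 5.8e-13 and 2.6e-08). Ms4a3, a marker of granulocyte and monocyte progenitors, and Serpinb1a, an inhibitor of neutrophil proteases, were also lower (log2 -1.46 ± 0.20 and -1.03 ± 0.11, edgeR adjusted p = 6.9e-06 and 1.1e-07). Ctsg, cathepsin G, went the other way: it ranged from 3805 to 5730.5 CPM (median 4449) in the MLLT6 libraries against 2805, 2273 and 1972 CPM (log2 0.98 ± 0.15, edgeR adjusted p = 3.2e-05), and it is named here after its value was seen. Gstm1, Prss57 and Srgn did not pass, with log2 fold changes of 0.16, 0.04 and -0.02.

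The stefins, inhibitors of cysteine proteases that lie in tandem on chromosome 16 of the mouse, belong to a list of 15 tested protease inhibitors, of which 10 were lower and 3 higher in the MLLT6 knockout (median -1.03). Stfa2 ranged from 2.33 to 7.07 CPM (median 4.49) against 1049.7, 1245 and 1361 CPM, Stfa3 averaged 3.34 ± 2.46 against 2046 ± 106 CPM, and Stfa2l1 averaged 1.61 ± 0.778 against 262 ± 35.8 CPM. All 3 groups of MLLT6 values lay far below the DOT1L values (log2 -8.18 ± 0.23, -9.40 ± 0.32 and -7.40 ± 0.27, edgeR adjusted p = 1.2e-17, 1.6e-16 and 5.9e-16). Wfdc21, a small secreted WAP-domain protein, averaged 5.80 ± 2.39 against 1925 ± 192 CPM (log2 -8.34 ± 0.25, edgeR adjusted p = 1.5e-17). The stefins have near-identical copies, and the sources used here do not say how reads shared between copies were counted, so the split between members is uncertain.

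The phagocyte NADPH oxidase makes superoxide in neutrophils and macrophages. Of its 8 tested subunits and partners, 7 were lower and 0 higher in the MLLT6 knockout (median -0.95). Cybb (ENSMUSG00000015340, mm10 chromosome X, 9435252 to 9487771), the catalytic membrane subunit, ranged from 0.155 to 1.84 CPM with a median of 0.646 in the MLLT6 libraries and stood at 618, 671 and 763 CPM in the DOT1L libraries, with 1.24, 0.313 and 0 CPM in the control. The DOT1L libraries stood alone at this level (log2 -9.99 ± 0.31, edgeR adjusted p = 2.2e-17). The cytosolic subunits differed by far less: Ncf4 averaged 132 ± 17.1 against 459 ± 26.8 CPM (log2 -1.80 ± 0.16, edgeR adjusted p = 1.1e-08) and Ncf1 averaged 978 ± 207 against 2224 ± 198 CPM (log2 -1.20 ± 0.19, edgeR adjusted p = 3.1e-05). Rac2, the small GTPase that switches the complex on, averaged 1049 ± 105 against 2411 ± 87.2 CPM (log2 -1.20 ± 0.14, edgeR adjusted p = 8.0e-07). Cybc1, a chaperone of the membrane subunits, did not pass (log2 -0.39, edgeR adjusted p = 0.215).

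Receptors through which phagocytes sense attractants were lower in the MLLT6 knockout, 9 of 11 tested, with 1 higher and a median of -2.89. S1pr4, a sphingosine phosphate receptor, ranged from 29.4 to 42 CPM (median 33.9) against 145, 169.9 and 171 CPM in the DOT1L libraries (log2 -2.26 ± 0.15, edgeR adjusted p = 6.8e-11). C5ar1, the receptor of complement C5a, had 0 counts over the 6 MLLT6 libraries and 500 over the 3 DOT1L libraries, at least 322-fold lower. Fpr2, a formyl peptide receptor, had 1 count against 103, a ratio of 199 with an exact 95% interval of 34.9 to 7938 that covers counting error only. Ltb4r1, a leukotriene B4 receptor, averaged 23.9 ± 6.66 against 176 ± 26.9 CPM (log2 -2.89 ± 0.41, edgeR adjusted p = 8.0e-06). Cx3cr1, the fractalkine receptor, did not pass (log2 -0.16).

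Among Fc, paired and lectin receptors, which bind antibody and microbial or host ligands, 13 of 19 tested were lower and 3 higher (median -1.06). Clec4a2 averaged 2.48 ± 2.28 against 206 ± 17.2 CPM, Clec5a 1.44 ± 0.442 against 61 ± 10.2 CPM, Cd300lf 4.71 ± 2.27 against 65.8 ± 9.63 CPM and Pirb 7.24 ± 2.25 against 44.4 ± 4.66 CPM. The MLLT6 libraries lay below every DOT1L library in each of these 4 genes (log2 -6.42 ± 0.31, -5.41 ± 0.38, -3.87 ± 0.31 and -2.61 ± 0.24, with the largest edgeR adjusted p of 9.2e-09). Of 10 tested toll-like receptors and adaptors, 5 were lower and 0 higher (8 lower with no filter on low counts). They include Tlr2, which senses bacterial lipoproteins (6.00 ± 2.25 against 15.3 ± 3.27 CPM, log2 -1.36 ± 0.32, edgeR adjusted p = 0.00234), and Unc93b1, which brings nucleic acid sensing receptors to endosomes (98 ± 27.9 against 269 ± 39.9 CPM, log2 -1.48 ± 0.23, edgeR adjusted p = 3.3e-05).

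Cytokine receptors were split, with 10 of 23 tested lower and 4 higher in the MLLT6 knockout (median -0.43). Il1r2, the decoy receptor of interleukin 1, ranged from 0 to 1.39 CPM (median 0.254) in the MLLT6 libraries against 52, 60.8 and 44.4 CPM (log2 -7.16 ± 0.49, edgeR adjusted p = 7.3e-11). Csf2ra, the alpha chain of the GM-CSF receptor, averaged 9.63 ± 2.66 against 68.1 ± 2.77 CPM, and Tnfrsf1b, a TNF receptor, averaged 36.7 ± 4.95 against 102 ± 7.89 CPM (log2 -2.84 ± 0.28 and -1.48 ± 0.13, edgeR adjusted p = 3.2e-08 and 5.5e-09). Tnfrsf9 (ENSMUSG00000028965, mm10 chromosome 4, 150914562 to 150946102), the costimulatory receptor 4-1BB, ran the other way and was nearly absent from the DOT1L libraries. It ranged from 821 to 1639.6 CPM with a median of 1286 in the MLLT6 libraries, 0.743, 9.60 and 18.4 CPM in the DOT1L libraries and 988, 1652 and 927 CPM in the control. The DOT1L libraries also varied among themselves over more than an order of magnitude in this gene (log2 6.91 ± 0.67, edgeR adjusted p = 2.9e-08). Of 11 tested chemokines and cytokines, 3 were lower and 1 higher, to be read beside the 29.3% called over all genes. With genes of low count kept in, 6 were lower. Il1rn, an antagonist of interleukin 1, averaged 2.53 ± 0.640 against 79.9 ± 10.4 CPM, and the chemokine Ccl6 averaged 2.69 ± 1.35 against 122 ± 14.2 CPM (log2 -4.97 ± 0.24 and -5.48 ± 0.36, edgeR adjusted p = 1.5e-13 and 3.4e-11). The single higher member, Osm, which encodes oncostatin M (log2 1.27 ± 0.39, edgeR adjusted p = 0.0158), did not pass without DOT1L replicate 1 (0.0527) or replicate 3 (0.105).

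Integrins and other adhesion molecules changed in both directions, 8 of 19 tested lower and 6 higher (median 0.13, and 5 lower without DOT1L replicate 2). Itgam (ENSMUSG00000030786, mm10 chromosome 7, 128062640 to 128118491), the alpha chain CD11b of the myeloid integrin Mac-1, ranged from 7.73 to 16.8 CPM with a median of 11.5 in the MLLT6 libraries against 100.3, 121 and 137 CPM (log2 -3.34 ± 0.26, edgeR adjusted p = 6.7e-10). Itgb2l, a beta integrin of maturing neutrophils, averaged 2.23 ± 1.76 against 208 ± 14.5 CPM (log2 -6.63 ± 0.29, edgeR adjusted p = 2.4e-14). Higher in the MLLT6 knockout were Itgb7, which takes part in homing to the gut (61.8 ± 7.35 against 6.17 ± 1.61 CPM), and Itga6, a laminin receptor chain (120.5 ± 12.3 against 38.4 ± 7.45 CPM). Each MLLT6 library exceeded each DOT1L library in both (log2 3.28 ± 0.23 and 1.64 ± 0.17, edgeR adjusted p = 1.0e-10 and 1.2e-07).

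Markers of monocytes and macrophages did not move one way: 6 of 15 tested were lower and 2 higher in the MLLT6 knockout (median -0.29). Mgl2, a galactose-binding lectin, averaged 12.04 ± 3.32 against 125 ± 14.8 CPM, and F13a1, coagulation factor XIII A, averaged 26 ± 3.79 against 93 ± 7.10 CPM (log2 -3.39 ± 0.28 and -1.84 ± 0.23, edgeR adjusted p = 1.7e-09 and 1.7e-06). Adgre1 (ENSMUSG00000004730, mm10 chromosome 17, 57358691 to 57483527), which encodes the macrophage antigen F4/80, was higher: it ranged from 166 to 214 CPM (median 189.9) in the MLLT6 libraries and stood at 31.6, 40.9 and 44.9 CPM in the DOT1L libraries, with no overlap (log2 2.27 ± 0.18, edgeR adjusted p = 1.3e-09). Cd68, Ctss, Clec7a and Apoe did not pass, with log2 fold changes of 0.23, 0.57, -0.29 and 0.11.

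Among 24 tested myeloid transcription factors, 11 were lower and 3 higher in the MLLT6 knockout (median -0.63). Cebpd (ENSMUSG00000071637, mm10 chromosome 16, 15887286 to 15891031), a C/EBP family member, ranged from 93.3 to 133 CPM (median 100.4) in the MLLT6 libraries against 454, 657 and 609 CPM. Irf8 (chromosome 8, 120736358 to 120756694), which steers progenitors towards monocytes and dendritic cells and away from neutrophils, ranged from 77.3 to 180.2 CPM (median 133) against 39.4, 24.2 and 25.5 CPM. Cebpd was thus low and Irf8 high in every MLLT6 library relative to every DOT1L library (log2 -2.43 ± 0.21 and 2.11 ± 0.24, edgeR adjusted p = 3.2e-09 and 4.2e-07). Mxd1, an antagonist of Myc that marks maturing granulocytes, averaged 50.5 ± 11 against 217 ± 20.9 CPM, and Klf2 averaged 4.56 ± 2.32 against 18.8 ± 4.32 CPM (log2 -2.11 ± 0.26 and -2.09 ± 0.26, edgeR adjusted p = 1.1e-06 and 1.1e-06). Spi1, which encodes PU.1 and is named here after its value was seen, averaged 133 ± 31.9 against 329.9 ± 25.7 CPM (log2 -1.33 ± 0.19, edgeR adjusted p = 8.2e-06). Cebpa did not pass (log2 -0.41 ± 0.19, edgeR adjusted p = 0.117, and 0.0286 without MLLT6 guide 2 replicate 1).

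The Hoxa cluster ran opposite to the granule genes. All 6 tested Hoxa genes were higher in the MLLT6 knockout, with a median log2 fold change of 2.34. Hoxa9 (ENSMUSG00000038227, mm10 chromosome 6, 52223100 to 52231089), a homeobox factor needed by MLL-fusion leukaemia, ranged from 219.8 to 282 CPM with a median of 266 in the MLLT6 libraries, 76.2, 56.9 and 55.8 CPM in the DOT1L libraries and 271, 272 and 365 CPM in the control. Hoxa10 (chromosome 6, 52231197 to 52240854) ranged from 181 to 262 CPM (median 212) against 34.6, 25.6 and 29.8 CPM. Hoxa11 averaged 93.8 ± 16.8 against 15.2 ± 3.83 CPM and Hoxa5 averaged 43.9 ± 4.30 against 11.3 ± 1.46 CPM. In all 4 genes each MLLT6 library exceeded every DOT1L library, and the MLLT6 and control ranges overlapped. The log2 fold changes of Hoxa9, Hoxa10, Hoxa11 and Hoxa5 were 2.05 ± 0.17, 2.82 ± 0.22, 2.63 ± 0.19 and 1.96 ± 0.18, with the largest edgeR adjusted p at 1.7e-08. Hoxa3, Hoxa4, Hoxa6 and Hoxa13 were not tested because of low counts.

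Of 8 tested Hox cofactors of the Meis and Pbx families, 3 were higher and 2 lower (median 1.03). Meis1 (ENSMUSG00000020160, mm10 chromosome 11, 18879817 to 19018985), which binds DNA with Hoxa9, ranged from 78.7 to 98.3 CPM with a median of 92.3 in the MLLT6 libraries and stood at 21.2, 9.24 and 10.5 CPM in the DOT1L libraries, without overlap (log2 2.75 ± 0.20, edgeR adjusted p = 3.0e-10). Pbx3 averaged 279 ± 44.3 against 83 ± 13.3 CPM and Pbx4 averaged 23.6 ± 7.502 against 6.07 ± 1.91 CPM (log2 1.75 ± 0.18 and 1.95 ± 0.40, edgeR adjusted p = 9.9e-08 and 6.0e-04). Meis2 was lower, at 6.75 ± 1.31 against 16.6 ± 2.21 CPM (log2 -1.30 ± 0.28, edgeR adjusted p = 0.00103). The lower count was 1 with no filter on low counts, with library totals alone, without any one of the 3 DOT1L libraries, without MLLT6 guide 1 replicate 1 and without guide 2 replicate 1 or 2.

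MLL fusion targets as a list, in which the Hoxa genes and Meis1 also stand, had 20 of 33 tested members higher and 5 lower in the MLLT6 knockout (median 1.07). Cdkn2c (ENSMUSG00000028551, mm10 chromosome 4, 109660876 to 109667189), the cyclin-dependent kinase inhibitor p18, ranged from 161 to 213 CPM (median 188) against 45.7, 30.6 and 28.7 CPM in the DOT1L libraries (log2 2.42 ± 0.16, edgeR adjusted p = 6.1e-11). Bcl2, the survival factor, averaged 50.3 ± 5.40 against 11.8 ± 2.67 CPM (log2 2.11 ± 0.21, edgeR adjusted p = 2.9e-08), and Flt3, a receptor kinase of progenitors, averaged 104 ± 35.4 against 14.6 ± 4.70 CPM (log2 2.82 ± 0.33, edgeR adjusted p = 5.3e-07). Jmjd1c, a demethylase family member, averaged 73.6 ± 10.2 against 32.3 ± 8.53 CPM (log2 1.19 ± 0.18, edgeR adjusted p = 2.1e-05). Myb, Mecom, Lmo2 and Satb1 did not pass, with log2 fold changes of 0.15 ± 0.16, 0.84 ± 0.60, -0.22 ± 0.17 and -0.53 ± 0.35 (edgeR adjusted p = 0.532, 0.310, 0.361 and 0.272). Myc did not pass either (log2 -0.86 ± 0.64, edgeR adjusted p = 0.334), though it was called with no filter on low counts (4.41e-05).

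**Figure D3:**
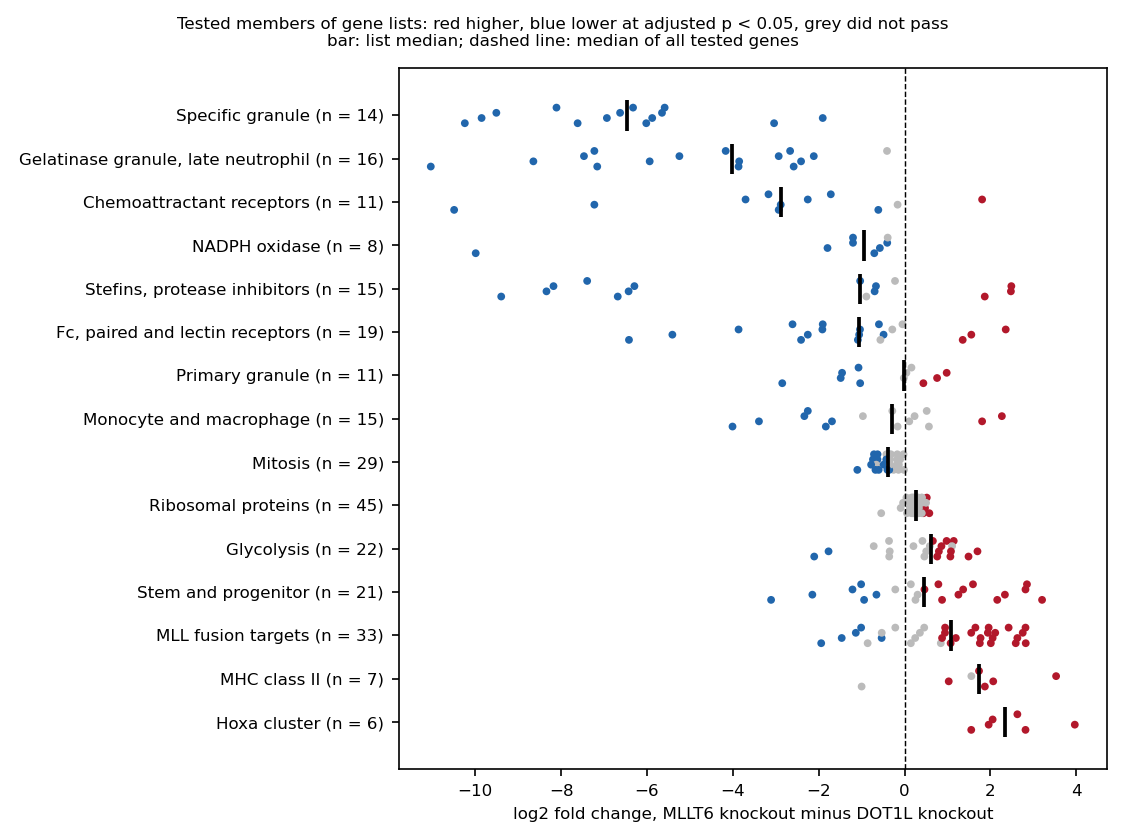
Log2 fold change (MLLT6 knockout minus DOT1L knockout, horizontal axis) of the tested members of 15 gene lists, 1 point a gene, red where higher and blue where lower at an edgeR adjusted p under 0.05, with a bar at the list median and a dashed line at the median of all genes. The specific granule list lies wholly left of 0 with a median of -6.48 and the Hoxa cluster wholly right of it with a median of 2.34, while primary granule genes fall on both sides.

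Stem and progenitor genes leaned the same way as the fusion targets, 11 of 21 tested higher and 6 lower (median 0.46). Their median against the control was -0.04 in the MLLT6 knockout and -0.53 in the DOT1L knockout. Cd34 (ENSMUSG00000016494, mm10 chromosome 1, 194938819 to 194961279), a sialomucin of progenitors, ranged from 166 to 349 CPM with a median of 191 in the MLLT6 libraries, where the highest value came from guide 1 replicate 3, against 44.2, 22.4 and 24.4 CPM in the DOT1L libraries. Cd93 averaged 877 ± 64.5 against 291 ± 11.3 CPM and the mucin Muc13 averaged 603 ± 62.8 against 119.5 ± 21 CPM. All 3 were higher in each MLLT6 library than in any DOT1L library (log2 2.82 ± 0.27, 1.59 ± 0.13 and 2.34 ± 0.18, edgeR adjusted p = 1.8e-08, 1.2e-09 and 6.0e-10). Prom1, which encodes the stem cell marker CD133, was lower, ranging from 14.6 to 28.3 CPM (median 21.9) against 172, 199 and 191 CPM (log2 -3.11 ± 0.25, edgeR adjusted p = 1.4e-09).

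Of 7 tested genes of the MHC class II pathway, which presents peptides to T cells, 5 were higher and 0 lower in the MLLT6 knockout (median 1.73). Without MLLT6 guide 1 replicate 1, 1 was lower. H2-Ob and H2-Oa, the chains of the DO molecule that restrains peptide loading, averaged 62.4 ± 11.1 against 5.21 ± 1.62 CPM and 32.6 ± 8.72 against 7.58 ± 2.33 CPM. H2-DMa, a chain of the loading factor DM, averaged 137 ± 37.8 against 37.5 ± 7.01 CPM. The MLLT6 libraries exceeded the DOT1L libraries in all 3 genes (log2 3.53 ± 0.31, 2.06 ± 0.31 and 1.87 ± 0.29, edgeR adjusted p = 6.0e-09, 1.5e-05 and 2.7e-05). The classical chain H2-Aa did not pass (log2 1.56 ± 0.72, edgeR adjusted p = 0.111). Interferon-stimulated genes were mixed, 6 of 13 tested lower and 3 higher (median -0.83). Ifitm3, which blocks virus entry, averaged 200.1 ± 88.2 against 1181 ± 108 CPM, and Cmpk2, a nucleotide kinase, averaged 7.14 ± 1.87 against 45.7 ± 7.99 CPM (log2 -2.60 ± 0.27 and -2.67 ± 0.27, edgeR adjusted p = 6.7e-08 and 5.0e-08). None of the 3 higher members passed without DOT1L replicate 2, without MLLT6 guide 1 replicate 3 or without guide 2 replicate 2, and guide 2 alone called none of them.

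The super elongation complex and menin act beside DOT1L on MLL-fusion targets. Of 15 tested genes of both, 2 were higher and 1 lower in the MLLT6 knockout (2 lower without MLLT6 guide 1 replicate 1), with a median of -0.21. This was a smaller share than the 29.3% called over all genes. Aff3 (ENSMUSG00000037138, mm10 chromosome 1, 38177326 to 38664955), a scaffold of the elongation complexes, ranged from 17.7 to 31.6 CPM (median 21.3) against 2.60, 3.91 and 2.32 CPM (log2 2.96 ± 0.28, edgeR adjusted p = 1.7e-08). Ell2, an elongation factor, averaged 122 ± 19.9 against 63.9 ± 6.23 CPM (log2 0.93 ± 0.17, edgeR adjusted p = 1.5e-04). Aff1 was lower, at 49.9 ± 3.93 against 76.6 ± 7.97 CPM (log2 -0.62 ± 0.16, edgeR adjusted p = 0.00602, and 0.0684 with library totals alone). Men1, Psip1, Kmt2a and Cdk9 did not pass, with log2 fold changes of 0.03, 0.07, -0.47 and -0.22. Of 36 tested histone methyltransferases and demethylases, 3 were higher and 4 lower (median -0.00096), also a smaller share than over all genes. Kdm7a averaged 13.2 ± 4.39 against 48.6 ± 6.96 CPM and Kmt5a 158 ± 27.8 against 274 ± 29.2 CPM, and Kdm5b averaged 38.4 ± 10.5 against 15.8 ± 4.06 CPM (log2 -1.87 ± 0.27, -0.81 ± 0.17 and 1.28 ± 0.26, edgeR adjusted p = 1.1e-05, 6.9e-04 and 6.5e-04).

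Mitosis genes leaned lower in the MLLT6 than in the DOT1L knockout. Against the control, their median log2 fold change was -0.07 in the MLLT6 knockout and 0.26 in the DOT1L knockout. Of 29 tested mitosis genes, 15 were lower and 0 higher in the MLLT6 knockout (median -0.39), but the count fell to 7 without each of the 3 DOT1L libraries in turn, to 8 with no filter and to 3 with library totals alone. Kif11, a spindle motor, averaged 57.3 ± 12.6 against 122 ± 22.3 CPM, Cenpe, a kinetochore motor, averaged 95.9 ± 11.6 against 148 ± 8.13 CPM, and Mki67, the proliferation antigen, averaged 142 ± 17.9 against 236 ± 11.6 CPM (log2 -1.10 ± 0.24, -0.63 ± 0.13 and -0.74 ± 0.19, edgeR adjusted p = 0.00129, 5.4e-04 and 0.00421). Of 37 tested DNA replication genes, 5 were lower and 1 higher, a smaller share than the 29.3% called over all genes. There were 3 lower without DOT1L replicate 1, none higher without replicate 2 or 3, and 1 lower and 4 higher with library totals alone. Rrm2, a subunit of ribonucleotide reductase, averaged 380.0 ± 21.2 against 664 ± 46.4 CPM (log2 -0.80 ± 0.12, edgeR adjusted p = 1.0e-05). Regulators of G1 were split, 8 of 21 lower and 6 higher (5 lower without DOT1L replicate 1 and 4 with library totals alone). E2f2 averaged 22.6 ± 3.79 against 64.7 ± 4.90 CPM, while the inhibitor gene Cdkn2a averaged 164 ± 39.2 against 65.7 ± 11.6 CPM and the cyclin gene Ccnd2 averaged 158 ± 43.4 against 76.7 ± 13.2 CPM (log2 -1.51 ± 0.20, 1.32 ± 0.24 and 1.02 ± 0.19, edgeR adjusted p = 4.1e-06, 1.5e-04 and 2.8e-04).

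Of 22 tested glycolysis genes, 10 were higher in the MLLT6 knockout, 2 were lower and 10 did not pass, with a median of 0.62. The list median against the control was 0.11 in the MLLT6 knockout and -0.46 in the DOT1L knockout. Pfkm and Pfkp, forms of phosphofructokinase, averaged 28.4 ± 2.97 against 10.3 ± 2.67 CPM and 546 ± 119 against 245 ± 72.8 CPM (log2 1.49 ± 0.21 and 1.14 ± 0.17, edgeR adjusted p = 9.7e-06 and 2.0e-05). The lower members were Slc2a3, a glucose transporter of neutrophils among other cells, which averaged 60.9 ± 10.1 against 207 ± 34.4 CPM, and Pfkfb4, a regulator of phosphofructokinase, which averaged 15 ± 1.61 against 64.9 ± 10.4 CPM (log2 -1.77 ± 0.17 and -2.11 ± 0.18, edgeR adjusted p = 3.3e-08 and 4.7e-09). Of 23 tested genes of the ATF4 amino acid response, 6 were higher and 1 lower, together near the 29.3% called over all genes. They were led by the pseudokinase gene Trib3 at 75.9 ± 16.7 against 21.5 ± 2.54 CPM (log2 1.81 ± 0.20, edgeR adjusted p = 2.0e-07). The lower count was 0 without DOT1L replicate 3 and 2 without MLLT6 guide 1 replicate 2 or 3. Of 26 tested genes of cholesterol and fatty acid synthesis, 7 were higher and 3 lower, to be read beside the same 29.3%. The higher count was 4 without DOT1L replicate 1 and 15 with library totals alone, and the lower count 0 without replicate 2 and 1 without replicate 3. Elovl6, a fatty acid elongase, averaged 60.1 ± 10.5 against 26.2 ± 3.05 CPM (log2 1.18 ± 0.19, edgeR adjusted p = 3.0e-05).

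Few ribosomal protein, ribosome biogenesis and nuclear oxidative phosphorylation genes passed, beside 29.3% of all tested genes. Of 45 tested ribosomal protein genes, 4 were higher and 0 lower (median 0.26), and this count moved between 2 without DOT1L replicate 3 and 9 without MLLT6 guide 1 replicate 1, with 8 without guide 1 replicate 2, 7 without guide 2 replicate 1 and 28 with library totals alone. Of 33 tested genes of Myc-driven ribosome biogenesis, 1 was higher and 0 lower. The higher count was 0 without DOT1L replicate 2 or 3 or MLLT6 guide 1 replicate 1, and the lower count was 1 without guide 1 replicate 1 or guide 2 replicate 3. Of 36 tested nuclear genes of oxidative phosphorylation, 2 were higher and 0 lower, with 1 higher without DOT1L replicate 2 or 3, 5 when only the compared libraries were fitted and 18 with library totals alone. Mitochondrially encoded genes were not so few: of 13 tested, 2 were higher, 3 were lower and 8 did not pass. Without DOT1L replicate 1 there was 1 in each direction, and without replicate 3 there was 1 lower.

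The 24 genes with the largest called differences at a mean of at least 5 CPM, where each guide alone was also called in the same direction, were drawn from 761 such genes that were higher and 847 that were lower. Besides granule and receptor genes, those lower in the MLLT6 knockout were BC049730, Csta1, a stefin A gene, Ifitm6 and Ifit1bl2. BC049730 (chromosome 7, 24709242 to 24714535) had 5 counts over the 6 MLLT6 libraries and reached 673, 528 and 733 CPM in the DOT1L libraries (edgeR adjusted p = 1.0e-08). Csta1 and Ifit1bl2 had 0 counts in the MLLT6 libraries, and were at least 189-fold and 146-fold lower against the floor of 3 counts. Those higher in the MLLT6 knockout came from varied families. Cbr2, a carbonyl reductase, had 190 counts in the MLLT6 libraries and 0 in the DOT1L libraries, at least 32.8-fold higher. Hbb-bt (chromosome 7, 103812524 to 103813996), a beta globin, ranged from 70.3 to 124 CPM (median 91.8) against 1.49, 1.78 and 2.85 CPM (log2 5.37 ± 0.35, edgeR adjusted p = 2.8e-11), and the near-identical Hbb-bs, which was not tested, makes the split of its reads uncertain. Stc1, a secreted glycoprotein, averaged 92.2 ± 30.1 against 4.29 ± 3.01 CPM, C2cd4b averaged 54.7 ± 13.3 against 2.90 ± 1.28 CPM, and the noncoding RNA Platr26 averaged 32.5 ± 12.6 against 0.955 ± 0.536 CPM (log2 4.39 ± 0.57, 4.16 ± 0.38 and 4.87 ± 0.35, edgeR adjusted p = 2.5e-06, 1.1e-08 and 2.2e-10). Acsbg1, Lypd6b and Slc45a3 were higher by 4.05, 4.51 and 4.02 on the log2 scale (edgeR adjusted p = 1.7e-06, 1.5e-06 and 1.8e-05). Tmem171 and Thsd1, with 2 and 3 counts in the DOT1L libraries, gave ratios of 50.4 (exact 95% interval 13.8 to 419.5) and 32.9 (11.1 to 161). The MLLT6 and the DOT1L libraries did not overlap in any of the 24 genes. These genes were chosen for large called differences, so this largely follows from the choice and adds no support.

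**Figure D4:**
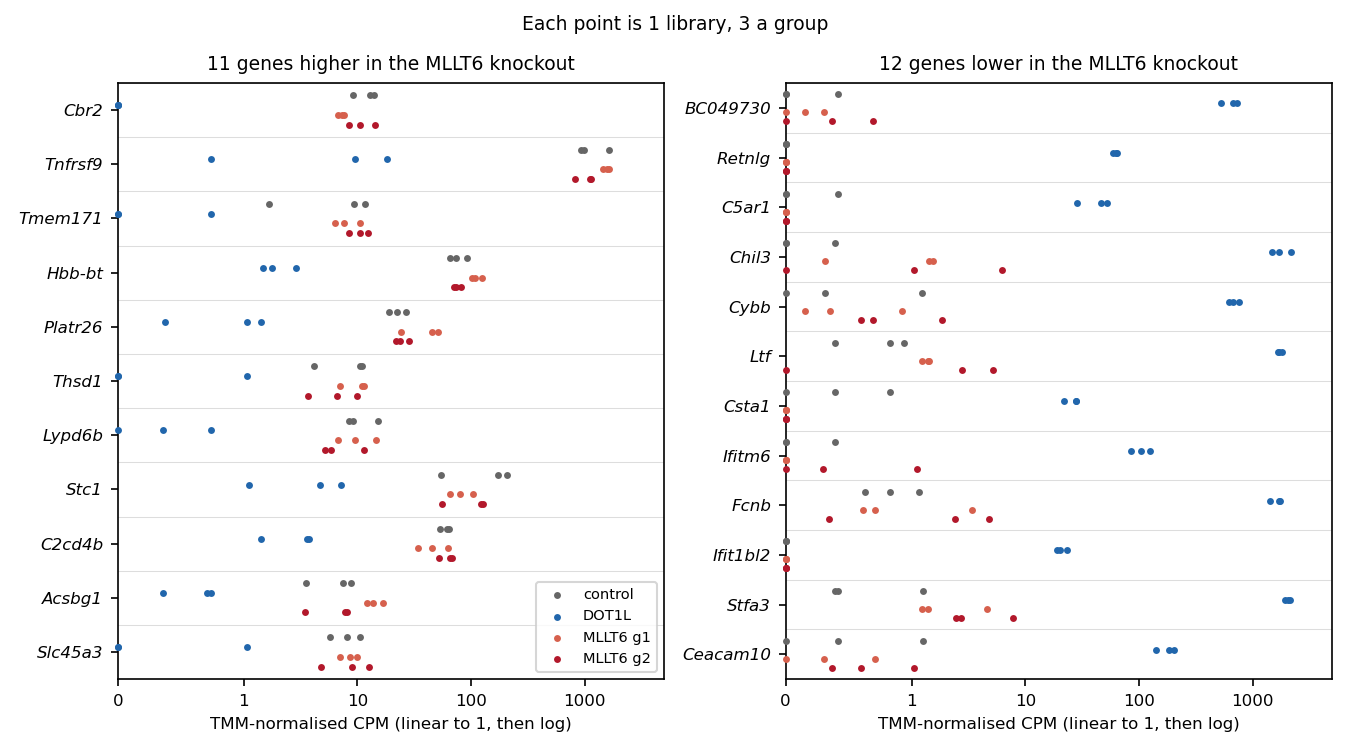
TMM-normalised CPM (horizontal axis, linear to 1, then logarithmic) of 11 of the 12 genes with the largest rises and of the 12 with the largest falls in the MLLT6 knockout against the DOT1L knockout, 1 point a library, 3 libraries a group. In each gene shown the points of both MLLT6 guides lie apart from the DOT1L points, which largely follows from choosing genes with large differences.

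The labelled cell type was checked against markers of other cells. All 10 leukaemia and myeloid markers were detected, and their summed level ran from 1376 to 1739 CPM in the MLLT6 libraries and from 3673 to 3886 in the DOT1L libraries. Defining markers of B cells (Cd79a, Ms4a1 and Pax5), T cells (Cd3e, Cd4, Cd8a and Trac), epithelium (Epcam, Krt8 and Cdh1) and endothelium (Cdh5, Kdr and Tek) held no count in any of the 9 libraries. Mast cell and basophil genes were detected for 5 of 11 markers, with sums of 308 to 425 CPM in the MLLT6 libraries and 212 to 242 in the DOT1L libraries, and mast cell proteases Tpsb2, Cma1 and Mcpt4 were at 0. Gata2, a factor shared by progenitors and mast cells, averaged 66.1 ± 13.2 against 14.7 ± 0.150 CPM (log2 2.16 ± 0.25, edgeR adjusted p = 5.0e-07). Eosinophil markers summed to between 5.52 and 17.5 CPM in the MLLT6 libraries and between 31.6 and 48.8 in the DOT1L libraries, led by Siglecf (9.39 ± 4.35 against 34.5 ± 9.11 CPM, log2 -1.96 ± 0.24, edgeR adjusted p = 1.1e-06), which neutrophils can also carry. Dendritic cell markers summed to 209 to 356 CPM in the MLLT6 libraries and 48.3 to 86.2 in the DOT1L libraries, nearly all of it Flt3 and Tcf4, while Xcr1, Siglech and Cd209a were at 0. Erythroid and platelet markers summed to 246 to 309.6 CPM and 267 to 321. These sums hide shifts both ways: of 5 tested, 2 were higher and 3 lower in the MLLT6 knockout (log2 -2.4 to 5.37). T and NK cell markers summed to 132 to 286 and 65.4 to 76.1, most of it Thy1. Fibroblast markers, with Col1a2, Col3a1 and Dcn at 0, summed to 125 to 272 CPM and 133 to 156, with 2 of 3 tested lower and 1 higher. Endothelial markers, most of it Pecam1, summed to 275 to 525 and 170.2 to 211. B cell markers summed to at most 6.20 CPM and epithelial markers to at most 0.743 in any of the 9 libraries. The part of other cell types in the differences above was not tested.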

How the data were processed

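The authors deposited raw counts per gene for 24 libraries in 8 groups of 3, in a table of 43629 Ensembl identifiers. Per the submitters' processing notes, bcl2fastq, HISAT2, HTSeq and DESeq2 were used with mm10. No version, annotation or strandedness of the counting is given in the sources used here, so overlapping and antisense genes cannot be told apart. Symbols and positions came from GENCODE M21 (GRCm38, which mm10 names), which held 42462 of the identifiers and lacked 1167.

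All 24 libraries entered a single quasi-likelihood fit (edgeR 4.0.16, R 4.3.3, TMM, filterByExpr, 10578 genes), and the mean of both MLLT6 guides was set against the DOT1L knockout. A gene counts as called when its p, adjusted by Benjamini and Hochberg over all tested genes, is under 0.05. The SE was worked back from the fold change and edgeR's F and is approximate. Libraries of a guide differed by a chi-square per gene of 4.77 to 30.8 (over genes that held 20 or more counts in the 2 libraries), so none were duplicates. Replicate numbers did not meet the rule used for pairing, a correlation above 0.1 in every same-numbered pair. The main fit therefore had no replicate term, though a replicate effect was visible. The fit was also run on counts simulated from its own levels and spread. Such counts hold no outlying library and no replicate effect, so that run cannot test how the fit deals with them.

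The compared libraries, the 47 gene lists and the tests were chosen with earlier results of these data known. Genes named are the DOT1L complex, the 12 largest called rises and falls at a mean of at least 5 CPM where both guides passed in the same direction, the 4 smallest adjusted p of each list, and list members that did not pass. The few others are marked as named after their values were seen, and a few are not reported here. Folds against no count use a floor of 3 counts over the group, and these folds and the exact 95% intervals cover counting error only. The promoter windows are from RefSeq on GRCm38.p6. Alternatives were no filter, DESeq2 1.42.0 size factors, library totals alone, the DESeq2 test, a replicate block, fitting only the 9 compared libraries, protein-coding counts as the denominator of shares, and leaving out libraries. Exact tests ran in scipy 1.17.1, tables in pandas 2.3.3 and figures in matplotlib 3.10.9, under Python 3.11.15.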

Additional observations from a re-analysis of the deposited data

Results flagged for a closer look

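Among the 6 MLLT6 libraries, the library farthest from the others was compared with its nearest neighbour by Dixon's gap ratio, for 170 values in all, and 19 stood apart. The cut-off passes about 1 in 20 of independent, normal values. These values come from the same 6 libraries and are not independent, so no excess is read from the 19. Of the 19, 8 came from MLLT6 guide 1 replicate 3 and 7 from MLLT6 guide 2 replicate 1.

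MLLT6 guide 2 replicate 1 held the highest values of several neutrophil genes, though all were far below the DOT1L libraries. Its S100a8 and S100a9 share was 0.04% of counts, where the next library had 0.0212%. S100a8 stood at 219.7 CPM there (next 112), S100a9 at 181 (next 102), Chil3 at 6.25 (next 1.53) and Ifitm6 at 1.104 (next 0.300). Fpr2 stood at 0.368 CPM, from its 1 count, where the other libraries had none, so its flag follows from that count alone. Fas, the death receptor, stood at 9.57 CPM (next 4.79).

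MLLT6 guide 1 replicate 3 held the highest values of Cd34 at 349 CPM (next 209), Ifitm3 at 372 (next 194), Thy1 at 268 (next 146), Ndufs3 at 53.5 (next 33.6), Rpl14 at 884 (next 692) and Rpl12 at 2695 (next 2011). It held the lowest values of Pbx4 at 8.68 CPM (next 23.7) and Unc93b1 at 42.2 (next 99.3). Without this library the calls of Cd34, Ifitm3, Pbx4 and Unc93b1 held, as did those of Thy1, Ndufs3, Rpl14 and Rpl12.

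Of the other 4 values, Hoxa5 was lowest in guide 1 replicate 1 at 35.7 CPM (next 44.1), and Bcl2l11 was highest in guide 1 replicate 2 at 39.2 CPM (next 31.5). H2-DMa was highest in guide 2 replicate 2 at 210.4 CPM (next 136), and mt-Nd3 was highest in guide 2 replicate 3 at 15.3 CPM (next 3.53).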

How the results depend on the processing

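The counts of genes higher and lower in the MLLT6 than in the DOT1L knockout, 1484 and 1616, stayed within 1.5 times of these values under every alternative except library totals alone, where 2565 were higher. With that scaling guide 1 gave 2310 higher genes, guide 2 gave 2046 higher and 769 lower, and the DOT1L knockout against the control gave 776 higher and 2096 lower. With no filter on low counts, 67 genes were called between the guides and 80 between the MLLT6 knockout and the control. Between the guides, DESeq2 called 7 genes and a fit of the compared groups alone called 1. Leaving out 1 library at a time gave 1051 to 1508 higher and 1228 to 1652 lower genes between MLLT6 and DOT1L, 0 to 1 called between the guides, and an S100a8 and S100a9 difference of -6.53 to -6.25 percentage points. Without MLLT1 guide 1 replicate 1 and MLLT6 guide 1 replicate 3, 1419 were higher and 1633 lower.

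The rule used for pairing, a correlation above 0.1 in every same-numbered pair, was not met. Same-numbered libraries of guide 1 and the DOT1L knockout correlated at 0.0381 to 0.11, and those of guide 2 at 0.0602 to 0.171. The best match was the own number for 2 libraries of guide 1 and for 3 of guide 2. Between the guides the range was -0.214 to 0.137. A replicate effect was still visible, as replicate 1 had the highest mitochondrial share in every group. On the third component (7.77% of the variance) replicate 1 of the DOT1L knockout, guide 1 and guide 2 lay at -15.7, -14.3 and -31.5. Replicate 2 lay at 3.79, 23.7 and -2.86, and replicate 3 at 13.5, 7.06 and 16.2. The order by number thus did not hold in guide 1, where replicate 2 lay beyond replicate 3. With the number as a replicate block, 1634 genes were higher and 1830 lower.

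Of 168 named genes, 17 lost their call in at least 1 of the alternatives, and no called gene changed direction. The log2 difference changed sign in 3 genes that had not passed: Mllt1 stood at 0.0581 with library totals alone, and with 1 library left out Mllt6 ranged from -0.066 (without DOT1L replicate 3) to 0.185 and Mllt3 from -0.0518 (without DOT1L replicate 1) to 0.197. Mllt3 was also below 0 without DOT1L replicate 3 or replicate 2 of either MLLT6 guide. Of 92 counts over gene lists, 29 moved by more than 1.5 times in at least 1. The cause was not tested. Libraries of 2719757 to 6773032 counts limit what can be said of genes with few counts, where an absent call shows no equality. A fold against a group with no count is a lower bound, the SE is approximate, and a single DOT1L guide was used.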

Other observations

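Other gene lists are given here to be read against the 14% of all tested genes that were higher and the 15.3% that were lower in the MLLT6 than in the DOT1L knockout, 29.3% in all. Of 16 tested p53 targets, 3 were higher and 3 lower in the MLLT6 knockout (median 0.06), with 5 higher when genes of low count were kept in and when only the 9 compared libraries were fitted, and 6 with library totals alone. Cdkn1a (ENSMUSG00000023067, mm10 chromosome 17, 29090976 to 29100727), the cyclin-dependent kinase inhibitor p21, ranged from 86.1 to 213 CPM (median 105) in the MLLT6 libraries against 18.6, 47.3 and 37.1 CPM in the DOT1L libraries. Zmat3, a p53-induced zinc finger protein, averaged 10.2 ± 3.91 against 3.74 ± 0.648 CPM (log2 1.93 ± 0.41 and 1.41 ± 0.30, edgeR adjusted p = 9.3e-04 and 9.8e-04). The stress-response gene Trp53inp1 was lower, at 2.13 ± 1.05 against 8.74 ± 3.87 CPM (log2 -2.04 ± 0.44, edgeR adjusted p = 0.00106). Of 15 tested apoptosis genes, 2 were higher and 1 lower, a smaller share than over all genes. Bnip3, a mitochondrial protein of hypoxia and mitophagy, averaged 671 ± 70.6 against 189.7 ± 113 CPM (log2 1.82 ± 0.29, edgeR adjusted p = 4.1e-05), and Bcl2l11, which encodes the killer protein BIM, averaged 31.8 ± 3.67 against 55.6 ± 11.8 CPM (log2 -0.81 ± 0.17, edgeR adjusted p = 6.1e-04). The lower count was 3 with low-count genes kept in, and 2 without DOT1L replicate 3 or any of the 6 MLLT6 libraries.

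Immediate early and signalling feedback genes were split, 5 of 21 tested higher and 3 lower (median 0.44). Klf6, a zinc finger factor of myeloid activation, averaged 8.75 ± 3.97 against 55.9 ± 14 CPM (log2 -2.73 ± 0.35, edgeR adjusted p = 2.4e-06), while Dusp6, a phosphatase of ERK, averaged 64.6 ± 11.9 against 29.7 ± 4.22 CPM (log2 1.11 ± 0.17, edgeR adjusted p = 1.7e-05). Of 27 tested lysosome genes, 4 were higher and 7 lower (median -0.20), with 4 lower without DOT1L replicate 2, 3 with low-count genes kept in and 2 with library totals alone. Glb1, beta-galactosidase, averaged 94.3 ± 15.3 against 37.4 ± 4.23 CPM (log2 1.32 ± 0.15, edgeR adjusted p = 5.1e-07), and Cd63, a tetraspanin of granule and lysosome membranes, averaged 403 ± 82.1 against 609 ± 71.3 CPM (log2 -0.61 ± 0.13, edgeR adjusted p = 0.00128). Of 3 tested genes usually linked to fibroblasts and stroma, 2 were lower in the MLLT6 knockout and 1 was higher (log2 1.17). The lower ones were Col1a1 and Acta2. Col1a1, a collagen chain, ranged from 0 to 0.353 CPM (median 0.303) against 16.7, 14.6 and 19.96 CPM, and Acta2, smooth muscle actin, from 3.60 to 11 CPM (median 8.92) against 58, 72.9 and 59.7 CPM (log2 -6.03 ± 0.60 and -3.05 ± 0.30, edgeR adjusted p = 3.6e-08 and 3.8e-08). Of 10 fibroblast markers, 6 had no count in the 9 libraries, among them Col1a2, Col3a1 and Dcn.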
